A study of Mus musculus with 6 samples.

Results

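Claudins are the membrane proteins that form the strands of tight junctions, and 9 of their genes were followed here in mouse mammary gland: Cldn1, Cldn3, Cldn4, Cldn5, Cldn6, Cldn7, Cldn8, Cldn10 and Cldn15. They were chosen by gene symbol, as the probe sets whose single symbol in the platform annotation was one of these 9 names. This gave 15 probe sets of 45037 that were not controls. All 9 genes had a probe set bright enough to be tested, and 13 of the 15 probe sets were tested, the other 2 being dim probe sets of Cldn1. RNA came from mammary glands of female mice that carried a pair of transgenes, one from a line called the LH mouse in the labels and the other from the MMTV-neu line. In MMTV-neu mice a viral promoter active in mammary epithelium drives the neu (Erbb2) oncogene. The glands were taken at 10 weeks (3 pools) and at 5 weeks of age (3 pools). Each pool held RNA of 3 animals, for 9 animals per age, and each was measured on 1 array. All 6 pools carried both transgenes, so the comparison is of ages within 1 genotype, and mice without the transgenes were not analysed here. Each value is the signal of a probe set on a linear scale.

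Tight junctions close the gap between neighbouring epithelial cells near their apical side. The claudins in a junction decide which ions may pass: some seal it, and others form pores for cations or anions. Each claudin spans the membrane several times, and its tail binds plaque proteins such as ZO-1 (Tjp1) inside the cell. In the mammary gland the junctions between milk-secreting cells are leaky in pregnancy and close around the onset of lactation, which keeps milk components and blood components apart.

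At 10 weeks the epithelial claudins Cldn3, Cldn4, Cldn7 and Cldn8 were higher, Cldn6, a claudin of embryonic epithelium, was lower, and Cldn1, the barrier claudin of epidermis, did not pass the test. By limma's moderated test with Benjamini-Hochberg adjustment over all probe sets, 5 of the 9 claudin genes were higher (Cldn8, Cldn4, Cldn7, Cldn3 and Cldn15) and 2 were lower (Cldn6 and Cldn10), each gene read on its brightest probe set. The mean 10-week signal of Cldn6, 75.7, was under the level at which probe sets were left out (about 102.5). Cldn6 could be tested because of its 5-week signal. Besides Cldn1, Cldn5 did not pass the test. Among all 13002 genes tested, 15.3% were called higher and 18.7% lower. Cldn8 had the largest difference of the 9, with a signal about 5.11 times as high at 10 weeks. Of the 9 genes, 5 had all 3 pools at 10 weeks above all 3 at 5 weeks, 2 had them below, and Cldn1 and Cldn5 overlapped. The shares over all genes tested were 24% above and 26.3% below, so the count below was close to its share. These are the same 7 genes that were called, so the lack of overlap adds no separate support. With a log2 difference of at least 1, 4 of the 9 were called higher (Cldn8, Cldn4, Cldn7 and Cldn3), against 3.78% of all genes tested. The median log2 difference of the 9 genes was 0.41, and that of all genes tested was -0.00368. In RNA of whole gland, fewer cells of a type and less RNA per cell cannot be told apart.

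**Figure D1:**
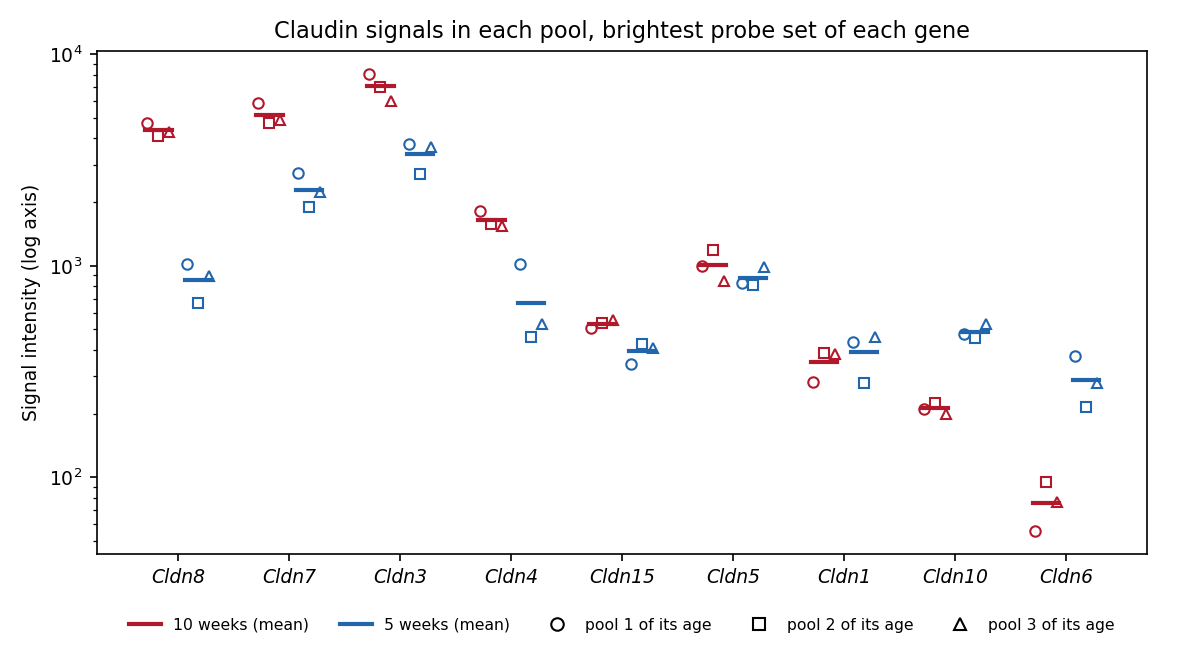
Signal intensity (log axis) of the brightest probe set of each claudin gene, with 10 weeks in red on the left and 5 weeks in blue on the right of each gene; symbols are the 3 pools of each age and bars their means. The ages are apart for Cldn8, Cldn7, Cldn3, Cldn4, Cldn15, Cldn10 and Cldn6 and overlap for Cldn5 and Cldn1; levels of different genes are not comparable, since each probe set has its own response.

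The promoters of 4 claudins that were called are shown because they hold the E-box of certain repressors. Of the repressor genes read here, all but Snai2 were also called lower at 10 weeks. A link between these repressors and the claudins was not tested. Promoter sequences, from 250 bases before to 50 bases after a gene's start, were taken from RefSeq on GRCm38.p6 and matched 8 of the 9 genes, with 10 starts in all. Cldn8 was not matched. The sequence CAGGTG, read on both strands (CACCTG on the other), is the E-box to which Snail and Zeb repressors bind. It was present in the promoters of 4 of the 8 genes: Cldn3, Cldn4 and Cldn7, which were higher at 10 weeks, and Cldn6, which was lower. Of all 32851 promoters in the table, 20.2% held it. A gene was counted if any of its starts held the sequence, while this share counts each promoter by itself. The figures are therefore not like for like. The E-box is in capitals in the sequences below, which run 5′ to 3′ along the gene's own strand. For Cldn7 the start whose promoter held it is shown.
Cldn3 promoter, chr5:134985964-134986263 (plus strand): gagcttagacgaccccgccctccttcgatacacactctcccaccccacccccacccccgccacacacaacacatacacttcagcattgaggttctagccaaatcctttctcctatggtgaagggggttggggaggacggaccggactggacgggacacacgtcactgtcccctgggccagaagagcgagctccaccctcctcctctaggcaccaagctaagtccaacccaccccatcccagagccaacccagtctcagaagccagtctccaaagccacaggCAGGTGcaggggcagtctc
Cldn4 promoter, chr5:134946885-134947184 (minus strand): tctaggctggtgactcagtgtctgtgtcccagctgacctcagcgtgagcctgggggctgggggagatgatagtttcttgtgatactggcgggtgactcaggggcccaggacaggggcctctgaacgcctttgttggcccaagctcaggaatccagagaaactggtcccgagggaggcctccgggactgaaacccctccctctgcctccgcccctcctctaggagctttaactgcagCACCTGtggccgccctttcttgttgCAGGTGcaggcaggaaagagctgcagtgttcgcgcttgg
Cldn7 promoter, chr11:69965171-69965470 (plus strand): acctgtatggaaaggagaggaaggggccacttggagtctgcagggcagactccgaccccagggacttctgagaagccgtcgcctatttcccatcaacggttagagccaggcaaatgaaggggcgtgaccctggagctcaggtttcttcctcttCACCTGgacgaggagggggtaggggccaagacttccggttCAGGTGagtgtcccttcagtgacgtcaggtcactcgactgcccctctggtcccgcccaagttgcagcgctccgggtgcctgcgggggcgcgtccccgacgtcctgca
Cldn6 promoter, chr17:23679115-23679414 (plus strand): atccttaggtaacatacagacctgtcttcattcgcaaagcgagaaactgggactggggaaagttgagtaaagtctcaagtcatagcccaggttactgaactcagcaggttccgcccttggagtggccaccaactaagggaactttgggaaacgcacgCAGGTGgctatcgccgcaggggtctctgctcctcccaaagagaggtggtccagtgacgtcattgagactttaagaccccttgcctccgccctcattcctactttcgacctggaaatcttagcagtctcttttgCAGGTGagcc

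The letters AACNGGTT, a Grainyhead-like motif read on both strands, were found in the promoter of 1 of the 8 genes, Cldn5, and in 2.09% of all promoters. TTCNNNGAA, the form bound by STAT factors, was found for Cldn7 alone among the 8 and in 8.30% of all promoters. The GC box GGGCGG, on either strand, was found for 8 of 8 and in 35.7% of all promoters. Here too a gene was counted if any of its starts held the letters. Cldn7 and Cldn10 each also had a start without the GC box. No match of 1 motif overlapped a match of another in these 10 promoters. A match describes the letters in the window and shows no binding. In the RefSeq table Cldn3 and Cldn4 are next to each other on chromosome 5, and both rose. Cldn6 is next to Cldn9 on chromosome 17, Cldn8 is next to Cldn17 on chromosome 16, and Cldn1 is next to Cldn16 on the same chromosome. Of these, Cldn1 was not called, and Cldn9 and Cldn16 were too dim to be tested.

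Cldn8 (probe set 1449091_at, chromosome 16), a sealing claudin known from kidney collecting duct and distal colon in mice, had signals of 4749, 4128.8 and 4272 in the 10-week pools, against 1018.5, 663.4 and 893.6 in the 5-week pools. The lowest 10-week pool was far above the highest 5-week pool. The log2 difference was 2.33 ± 0.15 (SE; 95% interval 1.98 to 2.67), with an adjusted p of 4.41e-05 by limma. It was the 42nd largest log2 increase among the 13002 genes, given as a description.

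Cldn7 (probe set 1448393_at, chromosome 11), a claudin that also lies along the sides of epithelial cells and binds EpCAM, had signals of 5901.9, 4760.3 and 4879.3 at 10 weeks, against 2753.5, 1903.4 and 2226.3 at 5 weeks. Its log2 difference was 1.17 ± 0.15 (SE; adjusted p = 0.000600), a ratio of mean signals of 2.26. The pools of the ages were apart, with pool 1 the brightest at both ages.

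Cldn3 (chromosome 5), a sealing claudin and a receptor for Clostridium perfringens enterotoxin, was measured by 4 probe sets that gave nearly the same answer. The brightest, 1434651_a_at, had signals of 8109.6, 7047.1 and 5998.8 at 10 weeks, against 3769, 2705.4 and 3635.1 at 5 weeks. Its log2 difference was 1.06 ± 0.15 (SE; adjusted p = 0.00122), and the other 3 gave 1.16 to 1.18 (adjusted p = 0.000790 to 0.00210). On all 4 the 10-week pools were above the 5-week pools, and 5-week pool 2 was the lowest. The 4 probe sets read the same gene, and 2 of them carry the suffix of probe sets that may also bind other transcripts, so they are not independent measurements.

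Cldn4 (probe set 1418283_at, chromosome 5), the other enterotoxin receptor and a barrier to cations, had signals of 1810.6, 1569.6 and 1536.6 at 10 weeks, against 1023.2, 458 and 529.9 at 5 weeks. The 10-week pools were close together, while 5-week pool 1 was well above the other pools of its age. The log2 difference was 1.33 ± 0.25 (SE; 95% interval 0.76 to 1.91; adjusted p = 0.00489). Its interval overlaps those of Cldn3 and Cldn7, and the difference between these genes was not tested.

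**Figure D2:**
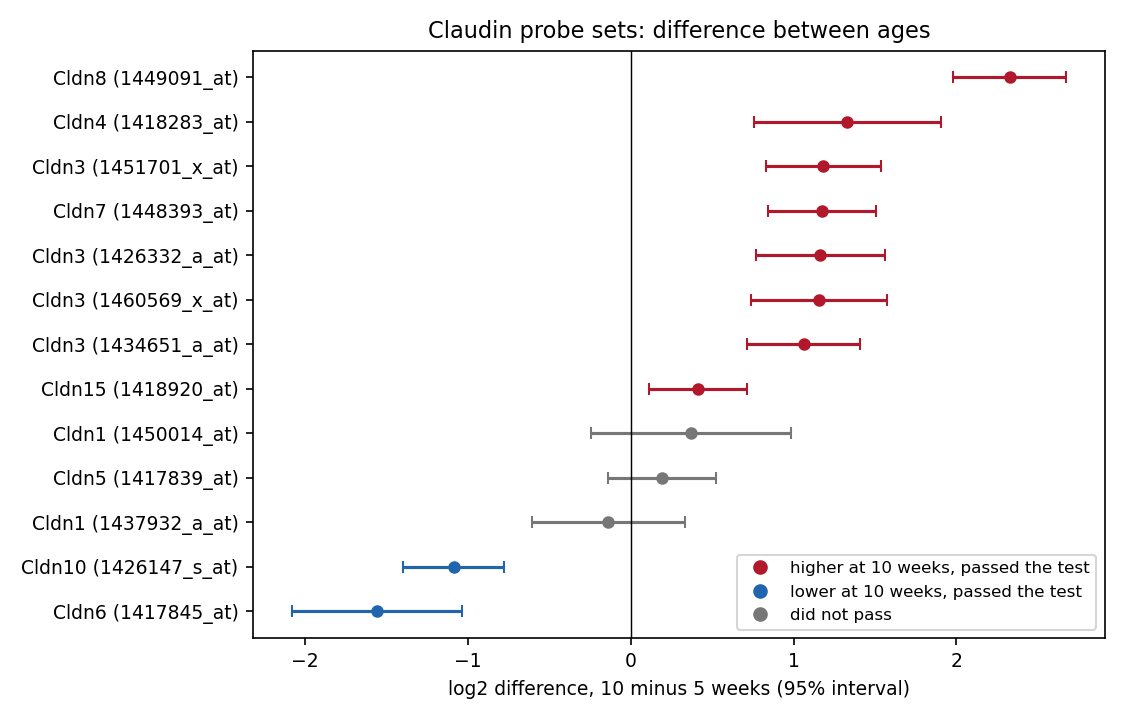
Log2 difference, 10 minus 5 weeks, with its 95% interval from limma for the 13 claudin probe sets tested. Cldn8 stands furthest to the right at 2.33, Cldn3, Cldn4 and Cldn7 lie between 1.06 and 1.33, Cldn10 and Cldn6 lie at -1.09 and -1.56, and both Cldn1 intervals and that of Cldn5 include 0.

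Cldn1 (chromosome 16), the barrier claudin of epidermis, had signals of 281.1, 386.5 and 381.4 at 10 weeks, against 436.4, 280.3 and 460.7 at 5 weeks, on its brightest probe set, 1437932_a_at. The ages overlapped. The log2 difference was -0.14 (95% interval -0.61 to 0.33; adjusted p = 0.660). Leaving out 1 pool moved it between -0.34, without 5-week pool 2, and -0.000745, without 10-week pool 1. Another probe set of the gene, 1450014_at, with signals of 154, 282.1 and 349.9 at 10 weeks, against 211.9, 143.4 and 209.4 at 5 weeks, gave 0.37 (95% interval -0.25 to 0.99; adjusted p = 0.344). Leaving out 1 pool moved that value between 0.15, without 10-week pool 3, and 0.67, without 10-week pool 1. The probe sets thus had opposite signs, and neither passed the test with all pools or without any 1 of them. The other 2 probe sets of Cldn1, with signals of 2 to 33.6 on the 6 arrays, were too dim to be tested.

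Cldn5 (probe set 1417839_at, chromosome 16), the claudin of endothelium and of the blood-brain barrier, had signals of 994.9, 1186.2 and 847.4 at 10 weeks, against 828.9, 808.8 and 986.8 at 5 weeks. The ages overlapped, and the log2 difference was 0.19 (95% interval -0.14 to 0.53; adjusted p = 0.364). Leaving out 1 pool moved it between 0.07, without 10-week pool 2, and 0.31, without 10-week pool 3, and it passed the test in none of these 6 fits by limma. The endothelial markers measured beside it were lower: 9 of 12 fell, none rose, and their summed signal was 6252 to 7590.1 at 10 weeks and 11415.8 to 13107.5 at 5 weeks. None of the 12 was at or under 1 on all arrays. Among all genes tested 18.7% were called lower and 15.3% higher. Pecam1, an adhesion molecule of endothelial cells, fell by 0.76 on the log2 scale (adjusted p = 0.00305), while Cdh5, their cadherin, had a log2 difference of -0.12 (adjusted p = 0.613). Set against the mean log2 level of these 12 markers in the same pool, Cldn5 stood at 1.04, 1.04 and 0.63 in the 10-week pools, against -0.01, -0.26 and 0.03 in the 5-week pools. That is a relative difference of 0.99 on the log2 scale with no overlap (exact two-sided permutation test over pools, p = 0.1, the smallest that 3 against 3 allows). The part of a change in endothelial RNA in the Cldn5 values was not tested.

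The claudins known to form channels went different ways. Cldn10 (probe set 1426147_s_at, chromosome 14), whose isoforms form cation or anion pores in kidney, had signals of 210.9, 225.5 and 198 at 10 weeks, against 475.3, 453.9 and 529.6 at 5 weeks. The replicates were tight at both ages and far apart between them, with a log2 difference of -1.09 ± 0.14 (SE; 95% interval -1.40 to -0.78; adjusted p = 0.000651). The RefSeq table gives Cldn10 more than 1 start, and the isoform read by its single probe set is not stated in the annotation. Cldn15 (probe set 1418920_at, chromosome 5), the sodium pore of mouse intestine, had signals of 507.4, 535.5 and 556.1 at 10 weeks, against 344.6, 426.7 and 409.9 at 5 weeks. The ages did not overlap, and the log2 difference of 0.41 ± 0.13 (SE) passed the test narrowly (adjusted p = 0.0466). The call was lost without any 1 of the 6 pools (log2 differences 0.33 to 0.47, adjusted p = 0.0559 to 0.141) and with no filter on dim probe sets (adjusted p = 0.0619).

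Cldn6 (probe set 1417845_at, chromosome 17), a claudin of embryonic epithelium that is scarce in most adult tissues, had signals of 55.8, 95.3 and 76.1 at 10 weeks, against 373.2, 214.6 and 277.8 at 5 weeks. Every 10-week pool was below every 5-week pool. The log2 difference was -1.56 ± 0.23 (SE; 95% interval -2.08 to -1.04; adjusted p = 0.00141). The mean signal at 10 weeks, 75.7 ± 19.8 (SD, n = 3), was under the level at which probe sets were left out (about 102.5), so the gene could be tested because of its 5-week signal, 288.5 ± 79.8 (SD, n = 3). The size of the decrease moved with the offset that was added to the signals, with -1.91 at an offset of 1 and -1.13 at 100, and the call held at both.

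Within an age the claudins differed between pools. Among the 5-week pools, pool 2 had the lowest signal for 8 of the 9 genes, all but Cldn15. At 10 weeks pool 1 was the lowest for 3 genes, pool 2 for 2 and pool 3 for 4. The summed signal of lymph node markers was 3915 in 5-week pool 2, against 476.2 and 561.9 in the other 5-week pools, and that of the 8 luminal epithelial markers was 30692.5 there, against 37593.1 and 36607.5. The part of lymphoid tissue in the claudin values was not tested. Without that pool the log2 differences were 2.16 for Cldn8, 1.05 for Cldn7, 0.91 for Cldn3, 1.11 for Cldn4, -1.73 for Cldn6 and -1.13 for Cldn10, and all 6 still passed the test.

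Markers of other tissues in the samples also differed between the ages. The summed signal of 8 skeletal muscle markers was 6021.6 to 45932.8 at 10 weeks and 55616.4 to 93530.6 at 5 weeks, with 10-week pool 1 the lowest, and 2 of the 8 markers fell. Of 7 fibroblast markers 6 fell, and their sum was 49331.6 to 53019.4 at 10 weeks and 70522.4 to 83941.5 at 5 weeks. Of 6 adipocyte markers 3 fell, with sums of 33011.1 to 41643.8 at 10 weeks and 42902.4 to 51652.4 at 5 weeks. None of these markers was at or under 1 on all arrays. Of all genes tested 18.7% were called lower, and the count of muscle markers that fell was close to that share. Without 10-week pool 1 the log2 differences were 2.27 for Cldn8, 1.08 for Cldn7, 0.96 for Cldn3, 1.26 for Cldn4, -1.42 for Cldn6 and -1.09 for Cldn10, each past the threshold. Without that pool the muscle sums at 10 weeks, 45932.8 and 42836.8, still lay below those of all 5-week pools. That fit therefore cannot show the part of these tissues in the claudin values, which was not tested.

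Luminal epithelial markers rose as well, and each claudin was set beside them. The list shares Cdh1 with the adherens junction genes, Elf3 with the epithelial factors and Epcam with the matriptase list. Of 8 such markers 6 rose and none fell, where 15.3% of all genes tested were called higher and 18.7% lower. The summed signal of the 8 was 51218.5 to 57400.7 at 10 weeks and 30692.5 to 37593.1 at 5 weeks. Milk genes, which mark the labelled tissue, were bright at both ages. The summed signals of 6 of them were 92929.1 to 106744.8 at 10 weeks and 54886.1 to 80145.7 at 5 weeks, but most of the 6 did not pass the test. Epcam rose by 0.93 (adjusted p = 0.00267) and the keratin gene Krt8 by 0.38 (adjusted p = 0.0387). Other probe sets gave larger rises, 1.48 for Epcam and 0.83 and 0.41 for Krt8. The marker means below use the brightest probe sets only, so the relative differences depend on that choice. The Krt8 call was lost without 10-week pool 1, 2 or 3 or 5-week pool 1 or 2 (adjusted p = 0.0630 to 0.125). Krt18, the partner keratin of Krt8, had a log2 difference of 0.32 (adjusted p = 0.0507). The mean log2 level of the 8 markers was 12.30 ± 0.09 at 10 weeks and 11.56 ± 0.16 at 5 weeks (SD, n = 3 each), a difference of 0.74.

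Relative to that mean, Cldn8 stood at -0.17, -0.23 and -0.17 in the 10-week pools, against -1.61, -1.94 and -1.80 in the 5-week pools, a relative difference of 1.59. Every 10-week pool was above every 5-week pool on this relative scale. Cldn7 had a relative difference of 0.44, Cldn3 of 0.33 and Cldn4 of 0.60. The pools of the ages did not overlap for Cldn7 and Cldn3, while for Cldn4 the 10-week values of -1.55, -1.61 and -1.63 met that of 5-week pool 1, -1.60. Cldn6 (-2.29), Cldn10 (-1.82), Cldn1 (-0.87) and Cldn5 (-0.54) were lower relative to the luminal mean, with no overlap between ages. Cldn15, which was higher in signal, stood 0.32 lower with overlap. In the exact two-sided permutation test over the pools p was 0.1 for Cldn8, Cldn7, Cldn3, Cldn6, Cldn10, Cldn1 and Cldn5, the smallest this design can give, 0.3 for Cldn4 and 0.2 for Cldn15. These 9 comparisons therefore cannot reach 0.05. Against the mean of the keratins Krt8, Krt18 and Krt19 alone, the relative differences were 1.91 for Cldn8, 0.75 for Cldn7, 0.64 for Cldn3, 0.91 for Cldn4 and -0.01 for Cldn15. They were -0.23 for Cldn5, -0.56 for Cldn1, -1.51 for Cldn10 and -1.98 for Cldn6. On this scale the ages overlapped for Cldn5 (exact two-sided permutation p = 0.3) and did not overlap for Cldn4 (p = 0.1), the opposite of what the 8 luminal markers gave for both genes.

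**Figure D3:**
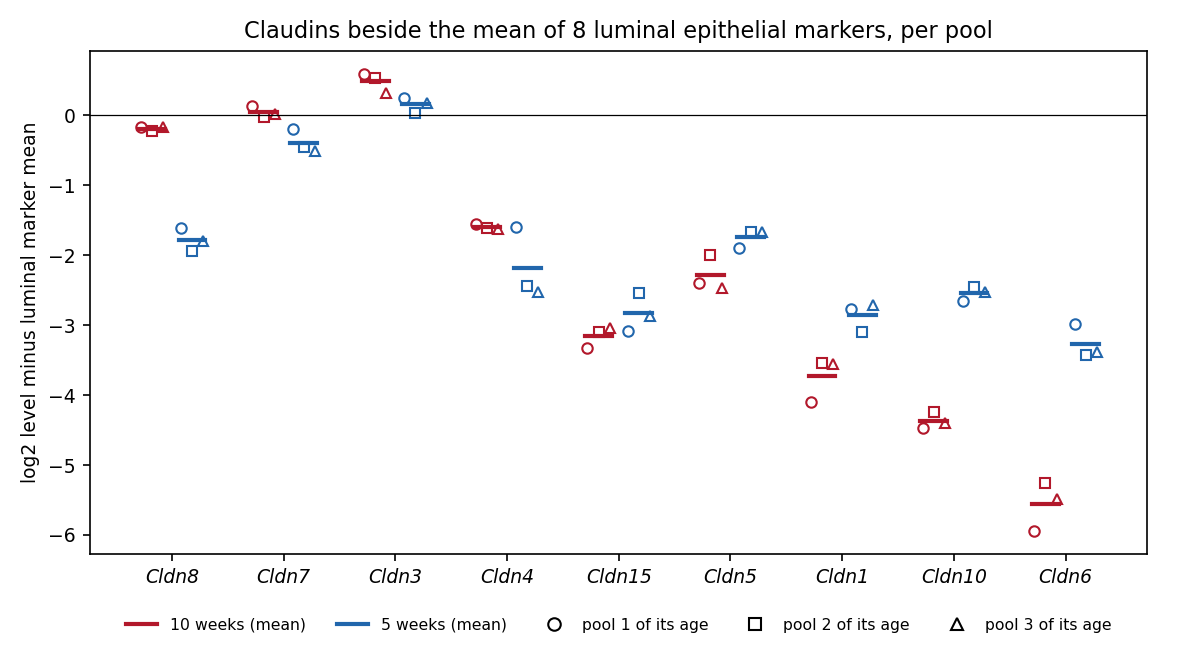
Log2 level of each claudin minus the mean log2 level of 8 luminal epithelial markers in the same pool, with 10 weeks in red on the left and 5 weeks in blue on the right; symbols are pools and bars means. Cldn8 moves by 1.59 and is the member with the largest upward step, Cldn3, Cldn4 and Cldn7 move by 0.33 to 0.60, and Cldn6 and Cldn10 drop by 2.29 and 1.82.

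The other claudin genes on the array were mostly dim. Of 17 further genes whose symbol begins with Cldn, claudin domain genes included, 12 were left out as too dim, among them Cldn2, Cldn9, Cldn11, Cldn16 and Cldn19. Of the 5 tested, Cldn34c1 rose to 410 ± 39.0 at 10 weeks, against 189.7 ± 46.5 at 5 weeks (SD, n = 3 each), a log2 difference of 1.02 (adjusted p = 0.00437). The other 4, Cldn12, Cldn18, Cldn22 and Cldnd1, did not pass, with log2 differences of 0.36, -0.06, -0.32 and 0.17. That count of 1 higher in 5 was close to the share over all genes tested, 15.3%. Cldn9, the neighbour of Cldn6, had mean signals of 33.6 ± 13.6 at 10 weeks and 14.3 ± 4.99 at 5 weeks (SD, n = 3 each), too dim to be tested.

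Most membrane partners of claudins also rose. Of 13 tested, 9 rose and 2 fell, with a median log2 difference of 0.81. Among all genes tested 15.3% were called higher and 18.7% lower, so the count that fell was close to its share. Ocln, which encodes occludin, a protein of the junction strands, had a signal of 1243 ± 101.7 at 10 weeks and 464.9 ± 107.2 at 5 weeks (SD, n = 3 each), a log2 difference of 1.38 ± 0.17 (SE; adjusted p = 0.000608). Marveld3, its relative, rose by 1.61, and Marveld2, which seals the corners where 3 cells meet, rose by 0.81. Ildr1, a protein of the same corners, rose by 1.37 and the junctional immunoglobulin protein gene Igsf5 by 1.64. On another probe set the rise was smaller for Ocln (0.70) and for Marveld3 (0.98). Jam3, an adhesion molecule also found on endothelium and fibroblasts, fell by 0.92 on the log2 scale.

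Of 21 plaque and polarity genes tested, 8 rose, 4 fell and 9 did not pass, with a median of 0.13. The count that fell was close to the share over all genes tested, 18.7%. Tjp3, which encodes the epithelial plaque protein ZO-3, had a signal of 2239 ± 103.1 at 10 weeks and 749.3 ± 191.2 at 5 weeks (SD, n = 3 each), a log2 difference of 1.57 ± 0.17 (SE; adjusted p = 0.000307). Tjp1 (ZO-1), which endothelium and fibroblasts also use, rose by 0.30 (adjusted p = 0.0326). That call was lost without any 1 of the 10-week pools or without 5-week pool 1 or 2 (adjusted p = 0.0738 to 0.0996). The polarity genes Pard6b and Patj rose by 1.75 and 0.90, and by 1.03 and 0.76 on another probe set of each. Mpdz (MUPP1), a multi-PDZ scaffold that binds claudin tails, went the other way, with 849.3 ± 42.4 at 10 weeks and 1853 ± 107.8 at 5 weeks (SD, n = 3 each), a log2 difference of -1.10 ± 0.10 (SE; adjusted p = 0.000175). Other probe sets of Mpdz gave -0.86 and -0.33, the last of which was not called.

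Of 13 adherens junction genes tested, 4 rose and 2 fell, with a median of 0.29. Over all genes tested 15.3% were called higher and 18.7% lower, so the count that fell was close to that share. Nectin1 rose by 0.81, Nectin2 by 0.61 and Jup (plakoglobin) by 0.49, while Nectin3 fell by 1.03 on the log2 scale. These counts rested on single pools: without 5-week pool 1 none passed limma's test as higher (adjusted p = 0.0502 for Nectin2, 0.0537 for Jup and 0.0594 for Nectin1), and without 10-week pool 1 there was 1 that rose and 1 that fell. Without 10-week pool 2, 10-week pool 3 or 5-week pool 2, 2 rose. Without 10-week pool 3, 5-week pool 2 or 5-week pool 3, 1 fell. Averaged over its probe sets, Nectin1 had a log2 difference of 0.38 (adjusted p = 0.206).

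Epcam, which binds Cldn7, and the matriptase protease pathway, which acts on Epcam, rose in all 5 genes tested (median 1.26). The share called higher among all genes tested was 15.3%. St14, the matriptase gene itself, had a signal of 4428 ± 623.9 at 10 weeks and 1316 ± 185.5 at 5 weeks (SD, n = 3 each), a log2 difference of 1.73 ± 0.14 (SE; adjusted p = 9.19e-05). Its inhibitor genes Spint1 and Spint2 rose by 1.70 and 1.26.

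Transcription factors known to act on junction genes differed by type. Of 9 epithelial factors tested, 7 rose and 1 fell, with a median of 0.77. Among all genes tested 15.3% were called higher and 18.7% lower, so the count that fell was not above its share. Grhl1 and Grhl2, Grainyhead-like activators of epithelial genes, rose by 1.37 and 0.89, and Elf5, the ETS factor of milk-secreting cells, rose by 1.20, while Klf4 fell by 1.12 on the log2 scale. Another probe set of Elf5 gave a larger rise, 2.23. Of 6 repressors of junction genes, 5 fell and none rose, with a median of -1.23. Snai2 was the 1 that did not pass, with a log2 difference of -0.56 (adjusted p = 0.0841 by limma) and overlap between ages. Zeb1 had a signal of 804.2 ± 142.4 at 10 weeks and 2411 ± 77.5 at 5 weeks (SD, n = 3 each), a log2 difference of -1.56 ± 0.14 (SE; adjusted p = 0.000133). Other probe sets of Zeb1 gave -1.19 and -0.98. Twist1 and Twist2 fell by 2.04 and 1.60. These repressors are also expressed by fibroblasts, whose markers fell between the same pools, and the part of fibroblast RNA in these decreases was not tested. Of the 4 promoters printed above with the E-box, 3 belong to claudins that rose and 1 to a claudin that fell. Whether the repressors act on these promoters was not tested, and Cldn8 had no promoter in the table.

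**Figure D4:**
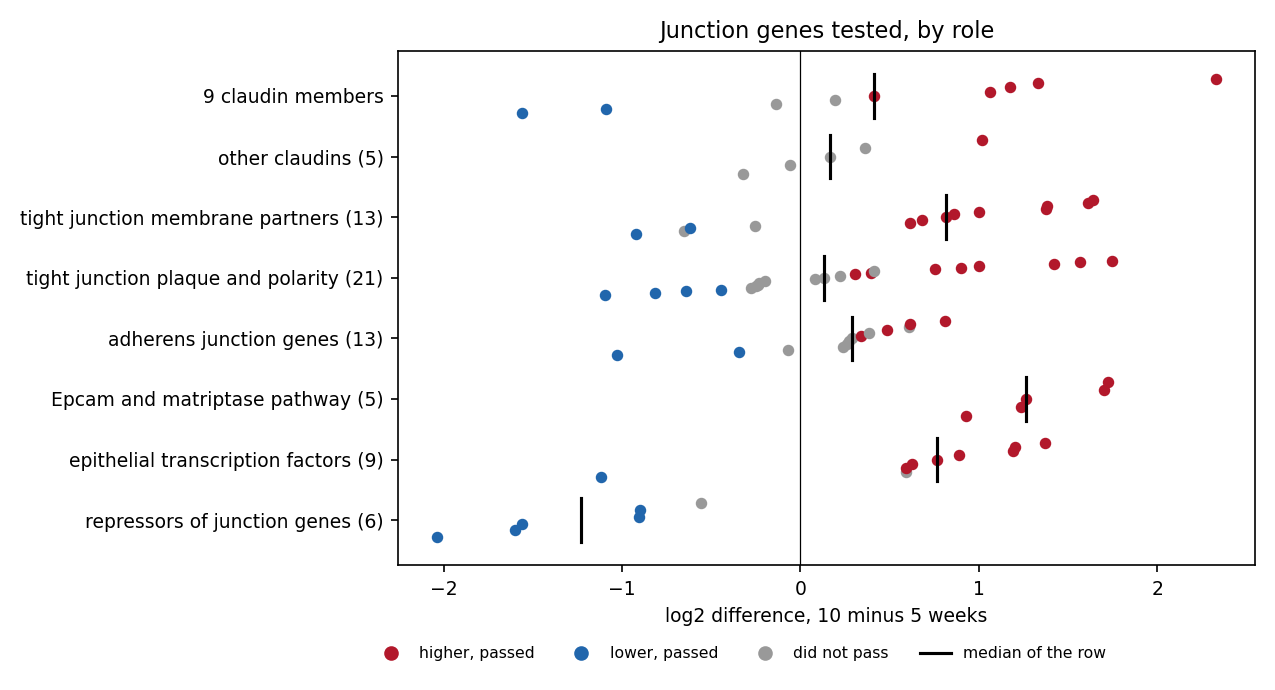
Log2 difference, 10 minus 5 weeks, of every junction gene tested, by role, 1 point per gene on its brightest probe set; red passed the test as higher, blue as lower, grey did not pass, and the black line is the row's median. The Epcam and matriptase row lies wholly right of 0 with a median of 1.26, the repressor row wholly left of 0 with a median of -1.23, and the claudins spread to both sides from -1.56 to 2.33.

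The genes whose levels over the 6 pools were most like those of Cldn8 by Pearson correlation of log2 levels were Hhipl2, Tent5c and Tmprss13, each with r = 0.999. Their log2 differences were 1.95, 2.04 and 2.40. Of the genes tested, 155 had r above 0.99 with Cldn8, so many were nearly as alike. For Cldn6 the 3 most alike were Ifitm2 (r = 0.999), Ttll5 (0.997) and Adamtsl1 (0.995), with log2 differences of -0.35, -0.44 and -1.01. These correlations cover 6 pools in 2 groups and are given as a description.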

How the data were processed

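Biotin-labelled total RNA of 6 pools, 3 per age, was put on expression arrays for mouse, per the labels. The authors deposited 1 linear signal intensity per probe set. After trimming 2% of probe sets at either end, the mean of each array was 500. The algorithm, detection calls and any batch are not given in the sources used here. Array medians were 156.4 to 172.5, and log2 correlations were 0.973 to 0.978 within an age and 0.932 to 0.955 between ages. The number of arrays limits the precision, and p-values measure the spread between pools and arrays together.

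The arrays hold 45101 probe sets, of which the 64 controls were dropped. In the platform annotation 34945 of the rest had a single symbol, 932 several and 9160 none, and 34741 symbols were matched through gene identifiers to RefSeq (GRCm38.p6). Signals under 1 were set to 1 and log2(signal + 32) was taken, which understates differences of dim genes. The dimmest 40% by mean log2 level were dropped, leaving 27022 probe sets. Log2 medians of the arrays spanned 0.118, less than the 0.2 allowed, so no normalization was added. limma 3.58.1 in R 4.3.3 (lmFit, eBayes with a variance trend) compared ages, two-sided, at an adjusted p of 0.05 over all probe sets. The brightest of a gene's probe sets stood for it, and other probe sets of a gene could give other sizes. The steps were tested on simulated data. Relative levels were tested by exact permutation over pools. Replicate numbers follow accession order and pair no pools.

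Members and lists were chosen with earlier results of these data known. Named beyond the members are, from each junction list, the 3 genes with the lowest adjusted p in the commoner direction and the called gene that moved furthest the opposite way, plus Ocln, Tjp1, Epcam, Krt8, Krt18, Pecam1 and Cdh5. Marveld2, Snai2 and the further claudin genes other than Cldn34c1 were named after their values were seen. Marker lists are given as counts: besides those in the results, 4 of 8 basal epithelial markers were higher and 2 lower, 2 of 6 alveolar were higher, 1 of 6 macrophage was higher and 2 lower, 1 of 3 nerve was higher and 2 lower, 0 of 6 lymph node and 0 of 1 skin passed by limma (1 and 0 at an unadjusted p under 0.05), and no mesothelial marker was bright enough. For all genes tested the shares were 15.3% higher and 18.7% lower. The macrophage count that was higher and the basal count that was lower lie near these shares. Python 3.11.15 with matplotlib 3.10.9 drew the plots.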

Additional observations from a re-analysis of the deposited data

How the results depend on the processing

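Alternatives changed the offset (1 or 100), the filter (none, or the lowest 60% left out), the normalization (quantile), the variance model, array weights and the probe sets of a gene, and left out each pool in turn. In all of these Cldn8, Cldn7, Cldn3, Cldn4 and Cldn10 kept their direction and their calls. Cldn6 did so wherever it was tested. With the lowest 60% left out it was too dim, so 1 claudin gene in place of 2 was called lower. Without each pool in turn 4 claudin genes were higher and 2 lower, Cldn15 being the call lost. With averaged probe sets the log2 difference of Cldn1 was 0.12, against -0.14 by the brightest. That of Cdh5 was -0.21 to 0.042 without single pools, above 0 only without 10-week pool 1. Neither gene was called there. The Krt8 call was also lost with no filter, with quantile normalization and with no variance trend (adjusted p = 0.0761, 0.128 and 0.0870), and that of Tjp1 with no variance trend (0.0807). Without 10-week pool 3, 2 further claudin genes in place of 1 were higher. The calls of Nectin1, Nectin2 and Jup were lost in 5, 2 and 3 alternatives. Krt18 passed in 4. The junction list counts under these alternatives were added after seeing the data. No paired analysis was possible because the pool numbers follow accession order only. Signals near background limit what can be said of Cldn6 at 10 weeks and of the dim claudins.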
